A study of Rattus norvegicus with 6 samples.

Results

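The nuclear genes for the proteins of the mitochondrial ribosome, whose rat symbols begin with Mrpl (large subunit) or Mrps (small subunit), were followed in the livers of rats given bromodichloromethane (BDCM). BDCM belongs to the trihalomethanes, by-products of the chlorination of drinking water. Members were found by name alone: a probe belonged when the transcript accession printed for it on the array matched a rat RefSeq gene whose symbol is Mrpl or Mrps followed by a number. This gave 113 of 61657 non-control probes, for 66 genes, among the 78 genes of that name with a transcript in RefSeq. The study compared 3 male Sprague-Dawley (Crl:CD(SD)) rats given BDCM at 200 mg/kg/day with 3 males of the same strain given corn oil, the vehicle. All 6 were bought at 5 weeks of age and kept on a basal diet and tap water. The labels give 9 weeks of administration in the description of the treatment, while sample names carry 28 for the day, so the length of exposure is not settled here. Liver RNA from each animal was hybridised to its own 1-colour Agilent array.

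Mitochondria keep a small genome of their own that encodes core subunits of the respiratory chain and of ATP synthase, and they translate its messenger RNAs on a ribosome distinct from that of the cytosol. The RNAs of this ribosome are transcribed inside the mitochondrion, whereas every one of its proteins is encoded in the nucleus, made in the cytosol and imported. The small subunit reads the message and the large subunit joins amino acids and threads the new, mostly hydrophobic chain toward the inner membrane. Many of the proteins descend from those of bacterial ribosomes and others have no bacterial counterpart. The liver, rich in mitochondria, depends on this machinery for oxidative metabolism.

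Between 61.3% and 66.9% of the probes of an array were well above background, the arrays' 75th percentile was 670 to 825 fluorescence units, and saturation was not seen in any non-control probe. The BDCM animal numbered 1 shared a slide with the 3 corn oil animals, and the other 2 BDCM animals lay on a second slide that was scanned separately. All 8 hepatocyte markers were well above background on all 6 arrays, as the label liver requires. Their summed level, in multiples of the array's 75th percentile, was 3106 to 3589 in BDCM livers and 3815 to 4275 in corn oil livers, and 2 of the 8 fell, Cps1 and Serpina1. The sums were 2.37 to 3.08 in BDCM and 1.35 to 1.66 in corn oil livers for 4 bile duct markers (Epcam rose), and 37.6 to 40.1 and 44.8 to 47.7 for 4 endothelial markers (Lyve1 fell). The other bile duct markers, Krt19, Krt7 and Cftr, overlapped between the groups, so the separation of the bile duct sums rests on Epcam. For 8 macrophage markers the sums overlapped, at 97.0 to 124 in BDCM and 100.3 to 135 in corn oil livers, although Trem2 and Gpnmb rose. The sums were 4.49 to 5.20 in BDCM and 3.21 to 4.03 in corn oil livers for 7 T, NK and B cell markers (Cd3e passed the test as higher but was not well above background on any corn oil array), and 349 to 501 and 525 to 779 for 4 red cell markers. None of 8 stellate cell markers passed the test and their sums overlapped. No marker was at 0. In pooled tissue RNA, fewer cells of a type and less RNA per cell cannot be told apart, and the part of these shifts in the values below was not tested.

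None of the 66 mitochondrial ribosomal protein genes passed the test, in either direction, while 9.36% of all 28995 features did. A feature was called at a Benjamini-Hochberg adjusted p under 0.05 in limma, fitted over all features; 1727 features (5.96%) were higher in BDCM livers and 988 (3.41%) lower. Among features with a gene symbol the share was 7.92%, or 903 of 11405. The smallest adjusted p among the 66 genes was 0.066, of Mrpl15. Every gene was well above background on all 6 arrays by its brightest tested probe. Whether signal level affected the comparison was not tested. At an unadjusted p under 0.05, 12 of the 66 genes stood out (18.2%), against 27.5% of all features. Of these genes 11 had the higher signal in BDCM livers and 1, Mrpl14, the lower. At that cut 15.4% of all features were higher and 12.2% lower.

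On the scale of the 75th percentile, the differences were small in both directions. The log2 fold change of BDCM over corn oil ran from -0.53 to 0.38, with a median of 0.083 and quartiles of -0.033 and 0.17, and 44 of 66 values were above 0. That tally depends on the scale: it was 40 with quantile normalization, 52 with median centring and 65 with spike-in scaling. Over all features, on the scale of the 75th percentile, the median was 0.0014 and 50.2% of values were above 0. A change smaller than 0.25 on the log2 scale was fitted for 59 of 66 genes (89.4%) and for 58.1% of all features. Replicate spread was also low: the median SD of log2 signal within a group was 0.077 for these genes and 0.16 for all features. For 63 genes the 95% interval of the difference lay within 1.5-fold in both directions, the exceptions being Mrpl19, Mrpl52 and Mrpl18, and for all but Mrpl18 it lay within 2-fold. The 3 BDCM animals did not overlap the 3 corn oil animals for 23 genes (34.8%), against 34.4% of all features. Of these genes 19 were higher and 4 lower in BDCM livers. Over all features 5322 (18.4%) were higher and 4648 (16%) lower without overlap, a more even split, and the difference was not tested.

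**Figure D1:**
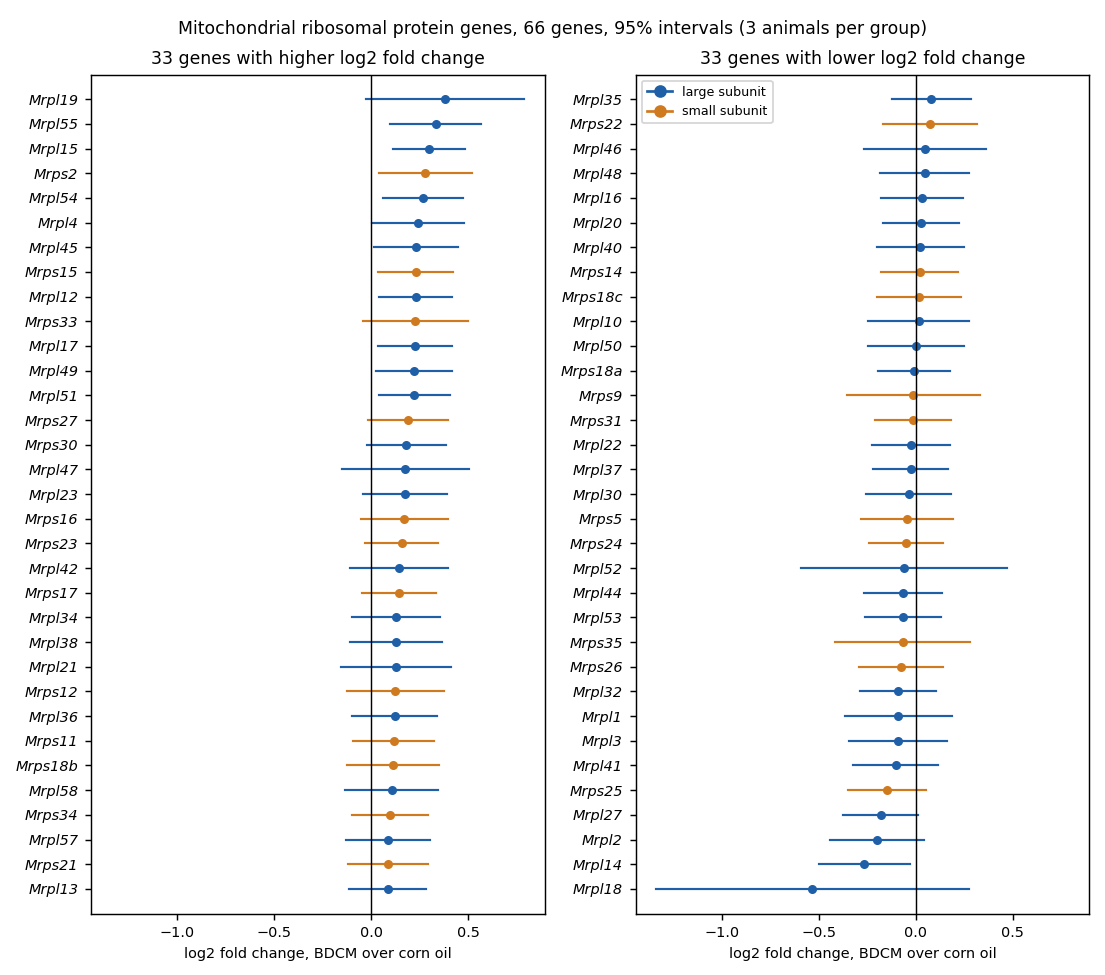
Log2 fold change of signal, BDCM over corn oil (x axis), for each of the 66 mitochondrial ribosomal protein genes, in 2 panels of 33 ordered from highest to lowest; points are limma estimates, lines are 95% intervals from 3 animals per group, blue marks the large subunit and orange the small subunit. Nearly all estimates lie between -0.25 and 0.25, and the widest interval is that of Mrpl18.

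Taken by animal, the median of the 66 genes relative to the corn oil mean was 0.061, 0.067 and 0.10 on the log2 scale in the BDCM animals numbered 1, 2 and 3. In the corn oil animals it was 0.0055, -0.041 and 0.038. Every BDCM animal thus had the higher median, and the gap between the groups was narrower than the range of the corn oil animals. Large subunit genes had a median log2 fold change of 0.064, with 29 of 44 above 0, and small subunit genes one of 0.092, with 15 of 22 above 0. Leaving out 1 animal at a time moved these medians between 0.040 and 0.094 and between 0.068 and 0.12, so they overlapped. By the classes used here, the medians were 0.083 over 38 genes whose proteins have a bacterial counterpart and 0.081 over 28 without one. Mrpl55 was counted among the 28, and its class is not certain.

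At the upper end stood 5 large subunit genes and Mrps2. Signals are given per animal as multiples of the 75th percentile of that animal's array, a scale on which values of one gene can be compared between animals but not between genes. Mrpl15 encodes the counterpart of bacterial L15, which binds ribosomal RNA of the large subunit. It read 5.31, 5.03 and 5.13 in the BDCM animals and 4.13, 4.23 and 4.23 in the corn oil animals. Its groups were well separated and tight within themselves, and the difference was 0.30 on the log2 scale (SE 0.077; limma gave an adjusted p of 0.066). Mrpl55, another large subunit protein, read 16.1, 18.2 and 15.3 in BDCM livers and 13.4, 12.8 and 13.2 in corn oil livers, a log2 difference of 0.33 (SE 0.097, adjusted p = 0.088). Mrpl54, a large subunit protein without a bacterial counterpart, read 30.1, 30.5 and 32.2 in BDCM livers and 27.0, 24.5 and 25.7 in corn oil livers, a log2 difference of 0.27 (SE 0.085, adjusted p = 0.10). All 3 BDCM animals lay above all 3 corn oil animals for each of these 3 genes.

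Mrpl19, whose bacterial counterpart lies at the interface of the subunits, had the highest fitted value, 0.38 (SE 0.17, adjusted p = 0.20), but its groups overlapped and the estimate ran from 0.24 (without corn oil 3) to 0.53 (without corn oil 2) when 1 animal was left out. Its signals were 3.77, 3.91 and 4.57 in BDCM animals and 3.11, 3.83 and 2.56 in corn oil animals. The corn oil animals of Mrpl19 were spread more widely than the BDCM animals. Mrpl4, which lines the tunnel through which the nascent chain leaves, read 4.45, 4.46 and 4.50 in BDCM livers and 3.85, 3.41 and 4.10 in corn oil livers, a log2 difference of 0.24 (SE 0.097, adjusted p = 0.17). Mrps2, the counterpart of a bacterial small subunit protein that sits near the exit of the message, read 7.13, 8.03 and 6.81 in BDCM livers and 5.70, 6.17 and 6.23 in corn oil livers, a log2 difference of 0.28 (SE 0.099, adjusted p = 0.13). Neither Mrpl4 nor Mrps2 had overlapping groups.

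At the lower end, Mrpl18 had the lowest estimate and the widest scatter of the family. The protein belongs to the central protuberance, and its bacterial counterpart binds the small 5S ribosomal RNA. Its signals were 8.16, 7.63 and 13.9 in BDCM animals and 20.1, 13.3 and 9.84 in corn oil animals, so that the groups overlapped. The log2 difference was -0.53 (SE 0.33, adjusted p = 0.35) and ranged from -0.81 to -0.26 when 1 animal was left out at a time; a second probe of the gene gave -0.19. Mrpl14, which lies at the subunit interface, read 33.7, 29.6 and 32.7 in BDCM livers and 41.3, 36.7 and 37.3 in corn oil livers. The groups did not overlap, and the log2 difference was -0.27 (SE 0.097, adjusted p = 0.14).

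Mrpl27, whose bacterial counterpart reaches toward the peptidyl transferase centre, read 19.5, 19.1 and 20.6 in BDCM livers and 22.6, 21.9 and 22.6 in corn oil livers (log2 fold change -0.18, SE 0.080, adjusted p = 0.21). Mrpl2, which binds RNA near that centre, read 16.7, 13.8 and 15.2 in BDCM livers and 18.0, 17.1 and 17.3 in corn oil livers (-0.20, SE 0.10, adjusted p = 0.26). Other probes of Mrpl2 gave smaller differences, -0.050 and, with overlapping groups, -0.057. Mrps25, a small subunit protein with no bacterial counterpart, read 19.8, 19.2 and 19.5 in BDCM livers and 22.2, 20.3 and 22.3 in corn oil livers (-0.15, SE 0.083, adjusted p = 0.31). These 3 genes and Mrpl14 were the 4 members with every BDCM animal below every corn oil animal. The lower side depends on the scaling: with added spike-in RNA as the scale, the median of all features moved to 0.50 and that of the 66 genes to 0.59, and Mrpl14, Mrpl27, Mrpl2 and Mrps25 stood at 0.24, 0.32, 0.31 and 0.36, each above 0 and below the median of all features.

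**Figure D2:**
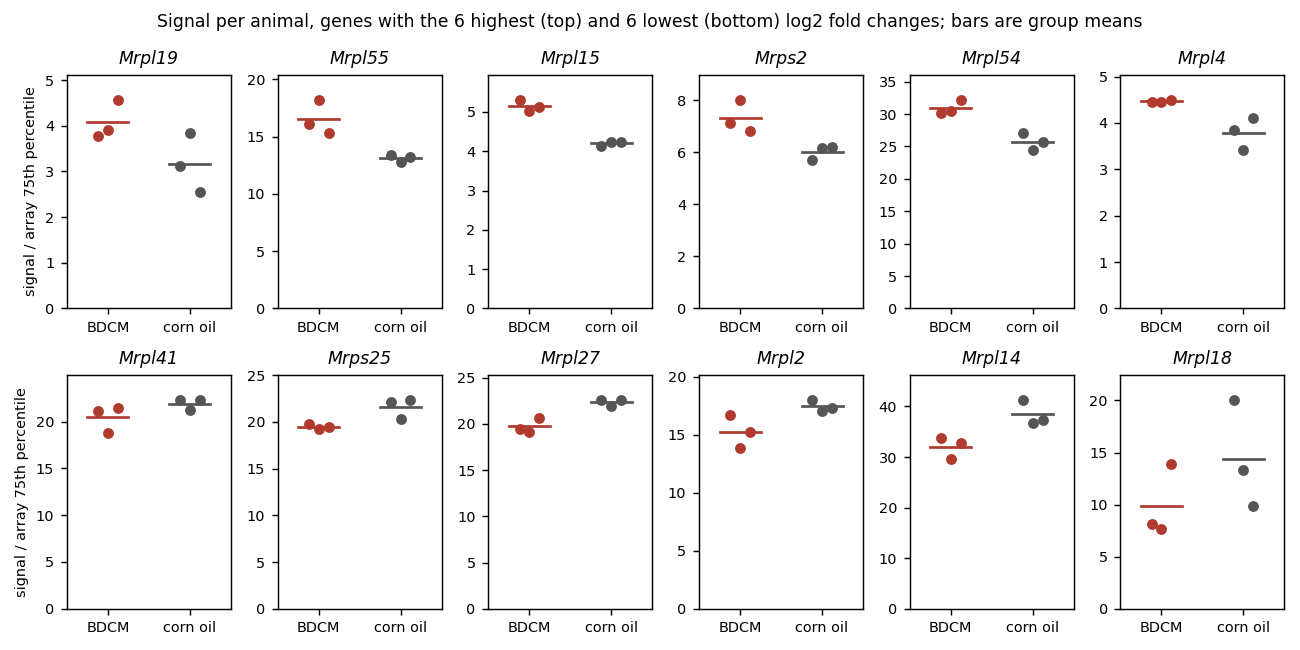
Signal per animal as a multiple of the array's 75th percentile (y axis, from 0) for the 6 genes with the highest log2 fold change (top row) and the 6 with the lowest (bottom row), BDCM animals in red at the left of each panel and corn oil animals in grey at the right; horizontal lines are group means of 3 animals. Mrpl15 and Mrpl55 show no overlap, whereas Mrpl19 and Mrpl18 do.

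Some members were read by their place in the large subunit. In the stalk, which recruits translation factors, Mrpl12 read 42.2, 41.6 and 40.6 in BDCM livers and 35.6, 34.3 and 36.4 in corn oil livers, a log2 difference of 0.23 (SE 0.078, adjusted p = 0.12). Its anchor Mrpl10 read 94.7, 105 and 117 in BDCM livers and 110.1, 100.4 and 102 in corn oil livers, and the groups overlapped (0.016, SE 0.11). Around the tunnel and its exit, Mrpl45, which ties the ribosome to the inner membrane, read 8.22, 7.83 and 7.24 in BDCM livers and 6.46, 6.47 and 6.88 in corn oil livers (0.23, SE 0.089, adjusted p = 0.16). Of its neighbours at the exit, Mrpl44, related to double-stranded RNA nucleases, had -0.064, Mrpl23 had 0.17 and Mrpl22 had -0.025. The tunnel region held values on both sides of 0, although those of Mrpl44 and Mrpl22 turned positive with normexp background correction and with spike-in scaling, and that of Mrpl22 also with median centring and slide as a block.

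In the central protuberance, Mrpl38 had a log2 fold change of 0.13 (0.063 to 0.19 when 1 animal was left out), Mrpl46 and Mrpl48 one of 0.047 each and Mrpl40 one of 0.024, beside the low and scattered Mrpl18. Mrpl58, a peptidyl-tRNA hydrolase that was built into the ribosome, read 34.3, 34.2 and 37.7 in BDCM livers and 36.0, 30.9 and 31.9 in corn oil livers (0.11, SE 0.099, adjusted p = 0.54). Mrpl3, near the peptidyl transferase centre, had -0.093 (-0.16 to -0.0061 when 1 animal was left out) and Mrpl41, a protein with no bacterial counterpart, -0.10 (-0.14 to -0.043). Mrps30 and Mrps18a carry small subunit symbols but lie in the large subunit. The first read 11.1, 11.6 and 11.6 in BDCM livers and 10.2, 9.51 and 10.5 in corn oil livers (0.18, SE 0.084, adjusted p = 0.23), without overlap, and the second had -0.0091.

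The other large subunit genes above 0 were Mrpl17, Mrpl49, Mrpl51, Mrpl47, Mrpl42, Mrpl34, Mrpl21, Mrpl36, Mrpl57, Mrpl13, Mrpl35, Mrpl16, Mrpl20 and Mrpl50, between 0.0013 (Mrpl50) and 0.22 (Mrpl17, Mrpl49 and Mrpl51). Those below 0 were Mrpl37, Mrpl30, Mrpl52, Mrpl53, Mrpl32 and Mrpl1, between -0.09 (Mrpl32 and Mrpl1) and -0.026 (Mrpl37). Mrpl51, one of the 12 genes with an unadjusted p under 0.05, read 2.93, 2.89 and 2.88 in BDCM livers and 2.52, 2.49 and 2.45 in corn oil livers. Mrpl52 was the most scattered after Mrpl18, with 5.36, 4.79 and 3.59 in BDCM livers and 3.62, 5.32 and 5.42 in corn oil livers.

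In the small subunit, Mrps12, whose bacterial counterpart guards accuracy at the decoding centre, read 19.3, 19.4 and 22.0 in BDCM livers and 20.1, 17.4 and 18.2 in corn oil livers (log2 fold change 0.13, SE 0.10, adjusted p = 0.48). Mrps34, required for the stability of the small subunit in mice, read 69.3, 67.0 and 71.2 in BDCM livers and 64.4, 62.5 and 67.0 in corn oil livers, with the lowest BDCM value level with the highest corn oil value (0.098, SE 0.081). Mrps15, whose bacterial counterpart binds ribosomal RNA early in assembly, read 4.65, 4.62 and 4.99 in BDCM livers and 4.01, 4.07 and 4.07 in corn oil livers (0.23, SE 0.080, adjusted p = 0.13). Its groups did not overlap, but a second probe of Mrps15 gave -0.11. The remaining small subunit genes above 0, Mrps33, Mrps27, Mrps16, Mrps23, Mrps17, Mrps11, Mrps18b, Mrps21, Mrps22, Mrps14 and Mrps18c, ran from 0.017 (Mrps18c) to 0.23 (Mrps33). Those below 0 besides Mrps25 were Mrps9, Mrps31, Mrps5, Mrps24, Mrps35 and Mrps26, between -0.074 (Mrps26) and -0.013 (Mrps9). Of the 3 paralogues Mrps18a, Mrps18b and Mrps18c, the largest difference was the 0.11 of Mrps18b.

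More than 1 tested probe was available for 34 genes, which allowed a check within the array. All probes of a gene lay on the same side of 0 for 29 genes and on both sides for 5: Mrpl22, Mrpl40, Mrpl50, Mrps15 and Mrps21. The range between probes of a gene had a median of 0.077 and was under 0.1 for 21 genes. Of 112 member probes none was called, against 8.52% of all probes tested singly. At an unadjusted p under 0.05 stood 18 of them (16.1%), 16 higher and 2 lower in BDCM livers, against 26.9% of all probes. The 4 probes of Mrpl17, whose bacterial counterpart lies near the exit of the tunnel, gave 0.22 to 0.32. Both probes of Mrpl55 (0.31 and 0.33) and both of Mrpl14 (-0.34 and -0.27) kept to one side. The widest range, 0.39, belonged to Mrps2, whose dimmest probe gave 0.67 with an SE of 0.66. That probe was scattered among the corn oil animals, at 0.32, 0.56 and 0.085.

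**Figure D3:**
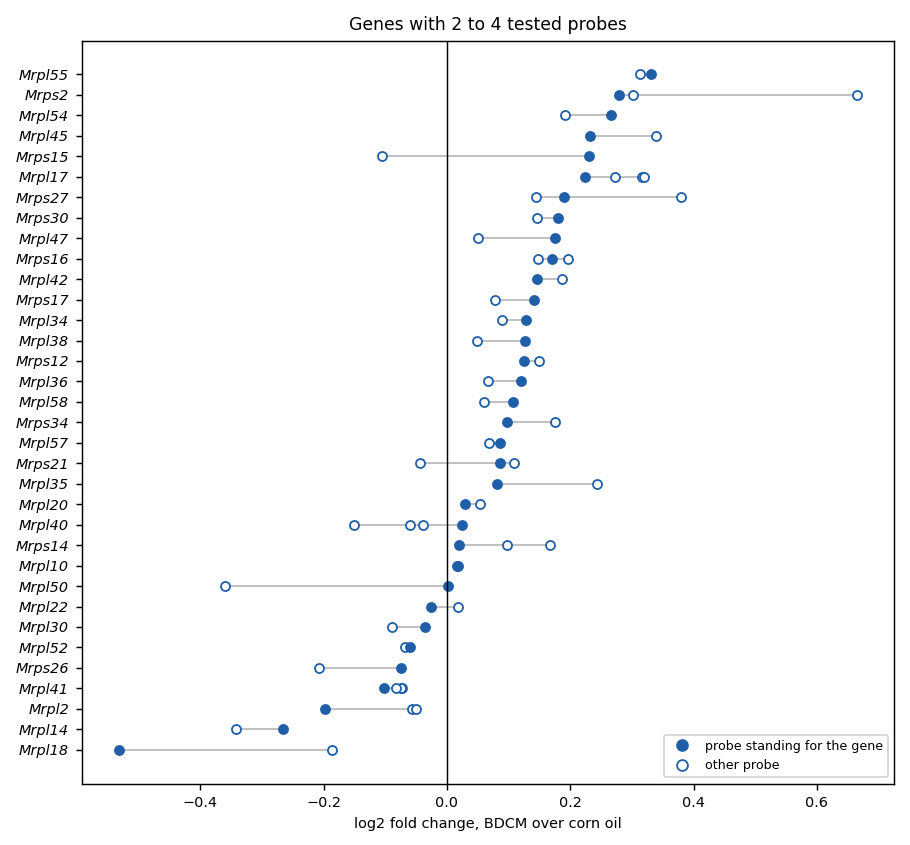
Log2 fold change, BDCM over corn oil (x axis), of each tested probe for the 34 genes with several probes (rows); filled points are the probe standing for the gene and open points its other probes. The probes of Mrpl55 lie close together, and those of Mrps2, Mrpl50, Mrpl18 and Mrps15 lie far apart.

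Within slide 1, the BDCM animal numbered 1 can be set against the 3 corn oil animals. This contrast rests on 1 BDCM animal, whose own spread is not measured, so it is given as values with no test; a fit with slide as a fixed block rests on the same contrast and gives the same estimates, since all corn oil arrays lie on slide 1. The median log2 difference was 0.061 for the 66 genes and -0.0093 for all features. Mrpl15 stood at 0.34, Mrpl55 at 0.29, Mrpl54 at 0.23 and Mrpl14 at -0.19, while Mrpl2 lay closer to 0, at -0.061.

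Genes that serve the mitochondrial ribosome without carrying an Mrpl or Mrps symbol were read from the same fit. Of 5 further ribosomal proteins none passed, with a median of 0.098. Ptcd3, a pentatricopeptide repeat protein of the small subunit, read 15.8, 17.1 and 16.9 in BDCM livers and 13.4, 13.4 and 13.3 in corn oil livers (0.31, SE 0.080, adjusted p = 0.064), and Dap3, a GTP-binding protein of that subunit, had 0.098. None of 23 tested assembly and ribosomal RNA modification factors passed (median 0.034). The lowest p values there were those of C1qbp at 0.34 (adjusted p = 0.10) and the pseudouridine synthase family member Rpusd3 at -0.22 (0.15). None of 14 translation factors passed (median 0.0034); Tufm, the elongation factor that delivers aminoacyl-tRNA, had 0.31 (adjusted p = 0.10) and Mrrf, the ribosome recycling factor, -0.25 (0.13).

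Of 16 mitochondrial aminoacyl-tRNA synthetases and their partners 1 passed (6.25%), a share below the 9.36% of all features. Yars2, which charges tyrosine tRNA, rose, with a log2 difference of 0.50 (SE 0.10) and an adjusted p of 0.036. Yars2 read 1.09, 1.28 and 1.32 in BDCM livers and 0.867, 0.886 and 0.843 in corn oil livers, without overlap, and the 1 BDCM animal of slide 1 stood 0.33 above the corn oil mean. The median of that list was 0.12. Of 20 genes for mitochondrial DNA and RNA synthesis and processing none passed (median 0.025), with Hsd17b10, a subunit of mitochondrial RNase P, at -0.32 (adjusted p = 0.095) and the elongation factor Tefm at 0.26 (0.096). None of 11 regulators of mitochondrial genes passed (median 0.0089). Ppargc1a, a coactivator of mitochondrial biogenesis, had 0.76 and Gabpb1, a partner of the ETS factor Gabpa, -0.33, each with an adjusted p of 0.20. Ppargc1a was dim, at 0.107, 0.057 and 0.056 in BDCM livers and 0.053, 0.045 and 0.029 in corn oil livers (SE 0.33). None of 17 import, chaperone and mass genes passed (median 0.066), with the chaperonin Hspd1 at 0.43 (adjusted p = 0.088) and the protease Lonp1 at 0.29 (0.082).

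Set beside the proteins of the other ribosome and of the respiratory chain, the mitochondrial ribosomal protein genes lay between them. Of 77 cytosolic ribosomal protein genes, 25 rose (32.5%) and none fell, the median log2 fold change was 0.36, and all 77 values were above 0. Relative to the corn oil mean, their per-animal median was 0.42, 0.31 and 0.35 in BDCM animals and 0.088, -0.11 and 0.028 in corn oil animals. Of 74 nuclear genes for oxidative phosphorylation subunits none passed, with a median of 0.019 and a range of -0.29 to 0.33. Their per-animal medians overlapped, at -0.029, -0.040 and 0.11 in BDCM animals and 0.037, -0.038 and -0.0060 in corn oil animals. The difference between the lists was not tested. Within slide 1 the medians were 0.061 for mitochondrial ribosomal, 0.42 for cytosolic ribosomal and -0.029 for oxidative phosphorylation genes.

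**Figure D4:**
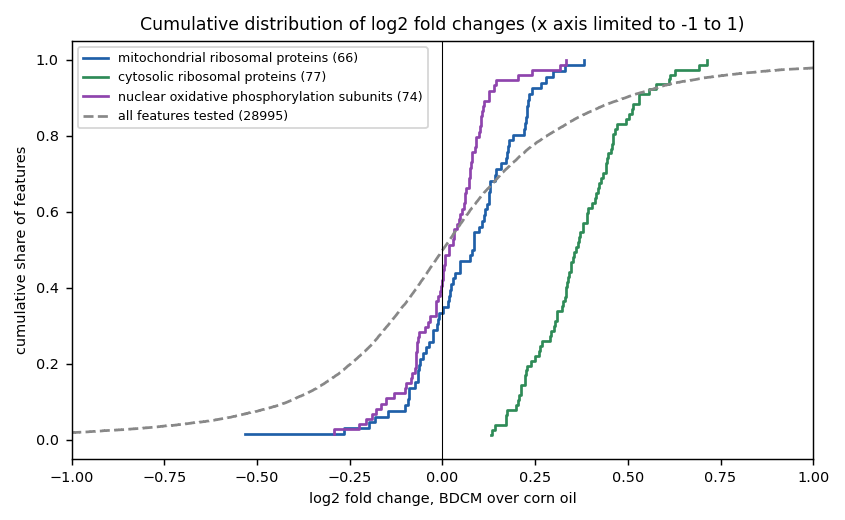
Cumulative share of genes (y axis) against log2 fold change, BDCM over corn oil (x axis, limited to -1 to 1), for 66 mitochondrial ribosomal, 77 cytosolic ribosomal and 74 oxidative phosphorylation genes and for all 28995 features (dashed). The curve of the mitochondrial ribosomal genes is steep and close to 0, with a median of 0.083, and that of the cytosolic ones lies to its right, with a median of 0.36.

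The count of members called was 0 in 16 of the 20 other ways of processing. Those with calls were normexp background correction (4 genes: Mrpl15, Mrpl45, Mrpl54 and Mrps2, all higher in BDCM livers, against 11.2% of all features), eBayes with trend and robust options (Mrpl15 and Mrpl55, against 11.8%), median centring (Mrpl15, against 10.2%) and spike-in scaling (47 genes, against 44% of all features). Where no member passed, the share of all features called was 9.36% with quantile normalization, 9.38% with the authors' value table, 9.52% with the mean over probes, 8.52% with every probe on its own, 10.4% with a stricter filter on dim probes and 8.03% with slide as a random block. In the other settings without a member called there were few calls of any kind, so the absence of member calls says little there: 1.33% with no filter, 1.21% with slide as a fixed block and 0.414% on slide 1 alone (the same contrast of 1 BDCM animal), 1.22% with the replicate number as a block, 4.04%, 1.16% and 2.58% without the BDCM animals numbered 1, 2 and 3, and 4.25%, 1.59% and 3.66% without the corn oil animals numbered 1, 2 and 3. The median of the 66 genes stayed above that of all features by 0.035 to 0.17 in every one of the 20 alternatives.

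**Figure D5:**
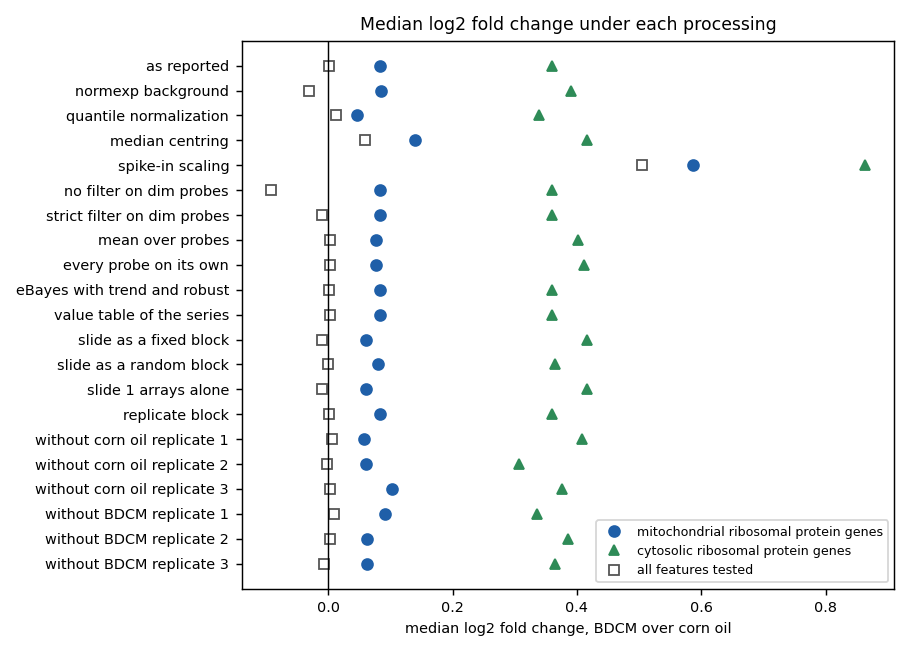
Median log2 fold change, BDCM over corn oil (x axis), under the reported processing and each of 20 alternatives (rows), for the 66 mitochondrial ribosomal protein genes (circles), the cytosolic ribosomal protein genes (triangles) and all features tested (open squares). Spike-in scaling moves all 3 to the right together, with the members at 0.59 and all features at 0.50.

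Promoters of nuclear genes for mitochondrial proteins are known for binding sites of NRF1, of ETS factors such as GABP and of YY1. RefSeq promoter windows of the rat assembly GRCr8, 300 bases long from 250 before to 50 after the annotated start, were matched to 54 of the 66 genes and searched on both strands for the cores GCATGC (NRF1), CCGGAA (ETS) and AAGATGG (YY1). The ETS core was present in 29 of 54 windows (53.7%), against 18.6% of 19005 protein-coding genes and 15.0% of all 33469 windows. The YY1 core was in 13 (24.1%), against 7.58% of protein-coding genes and 7.01% of all windows, and the NRF1 core in 8 (14.8%), against 7.67% and 7.16%. At least 1 of the 3 was in 36 windows (66.7%), against 29.9% of protein-coding genes, and different cores overlapped in none. The median GC content was 56.2% in the members and 55.3% in protein-coding genes. A match of these letters is a description and shows no binding.

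Below, 4 windows are printed 5′ to 3′ on the gene's strand, with the cores in capitals: Mrpl12 and Mrpl54, among the genes with the higher signal in BDCM livers, Mrpl14, the one member with an unadjusted p under 0.05 and the lower signal, and Mrpl46, which shares its start region with Mrps11. Mrpl12 (chr10:106256496-106256795, plus strand) holds 2 ETS cores and an NRF1 core that spans the start. Mrpl54 (chr7:9103275-9103574, plus strand) holds an NRF1 core downstream of the start. Mrpl14 (chr9:22811184-22811483, minus strand) holds none of the 3 cores, and Mrpl46 (chr1:142116981-142117280, minus strand) holds a YY1 core downstream of the start. The printed windows are examples. Among other genes higher in BDCM livers at an unadjusted p under 0.05, Mrpl55, Mrps2, Mrpl45, Mrps15 and Mrpl51 also held none of the 3 cores. Mrpl4, Mrpl17 and Mrpl49 held cores, and Mrpl15 had no matched window.
Mrpl12: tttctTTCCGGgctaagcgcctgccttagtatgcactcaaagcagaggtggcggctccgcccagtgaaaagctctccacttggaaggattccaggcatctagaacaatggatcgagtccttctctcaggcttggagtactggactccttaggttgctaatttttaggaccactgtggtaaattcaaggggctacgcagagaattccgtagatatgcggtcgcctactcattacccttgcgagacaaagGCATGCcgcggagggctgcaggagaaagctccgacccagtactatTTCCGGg
Mrpl54: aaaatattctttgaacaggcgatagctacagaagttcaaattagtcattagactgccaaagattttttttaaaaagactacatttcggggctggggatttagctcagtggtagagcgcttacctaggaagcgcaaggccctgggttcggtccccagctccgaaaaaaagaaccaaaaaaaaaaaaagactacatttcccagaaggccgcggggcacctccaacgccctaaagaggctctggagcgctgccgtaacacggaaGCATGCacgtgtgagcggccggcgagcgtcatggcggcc
Mrpl14: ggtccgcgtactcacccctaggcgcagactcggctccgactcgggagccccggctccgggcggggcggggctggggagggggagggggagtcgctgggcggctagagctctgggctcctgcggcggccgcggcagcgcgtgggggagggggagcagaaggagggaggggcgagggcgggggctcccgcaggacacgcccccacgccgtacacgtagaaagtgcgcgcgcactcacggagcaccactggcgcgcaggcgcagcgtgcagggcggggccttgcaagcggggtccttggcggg
Mrpl46: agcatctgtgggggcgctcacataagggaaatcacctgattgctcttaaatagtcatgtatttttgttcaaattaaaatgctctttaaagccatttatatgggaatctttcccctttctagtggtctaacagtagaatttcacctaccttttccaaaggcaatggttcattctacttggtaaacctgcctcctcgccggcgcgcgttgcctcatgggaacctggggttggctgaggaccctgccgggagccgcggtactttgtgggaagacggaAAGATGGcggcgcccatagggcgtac

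Fold changes were set beside the presence of a core. The 29 genes with an ETS core had a median log2 fold change of 0.025 and the 25 without one 0.13. For the NRF1 core the medians were 0.064 over 8 genes with it and 0.047 over 46 without, and for the YY1 core 0.047 over 13 and 0.029 over 41. A second feature that the choice of members did not use was a divergent neighbour, a gene starting within 1000 bases on the opposite strand. Of the 54 genes 17 had one (31.5%), against 11.8% of 27457 genes. That background holds genes of every type, and the share over protein-coding genes alone was not computed. Of these 17 neighbours 14 were tested and none passed. Mrpl46 and Mrps11, 234 bases apart, are each other's neighbour, with log2 fold changes of 0.047 and 0.12. Mrpl49 (0.22) neighbours Fau (0.30, adjusted p = 0.0997), which encodes a ubiquitin-like protein fused to a cytosolic ribosomal protein, and Mrpl18 (-0.53) neighbours the chaperonin subunit Tcp1 (-0.34, adjusted p = 0.12). Signs were opposite for Mrps18b (0.11) and Ppp1r10 (-0.52). They were also opposite for Mrpl40 and Hira, Mrps27 and Ptcd2, Mrpl30 and Mitd1, and Mrpl32 and Psma2. In the other tested pairs the signs were the same.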

How the data were processed

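Total RNA was measured in the livers of 6 rats, 3 given BDCM and 3 given corn oil, on 1 array each. The authors used Agilent Feature Extraction 10.7 to quantify the scans (per the file headers and the submitters' processing notes) and deposited background-subtracted processed signals as linear fluorescence intensity, not scaled between arrays. The deposited flags mark spots above background, saturated or outlying. The values of a deposited table of the series are a linear ratio of processed signal to the array's 75th percentile (at least 99.997% of probes over 0.05 lay within 1%); it is not centred per gene, its column medians ran from 0.0953 to 0.102, and it served as an alternative.

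Of 62976 spots per array 1319 are controls, and 27 outlying probes were left out. Accessions were matched to RefSeq transcripts of GRCr8 for names only, since the array design uses an older build: of 61657 probes 27460 (44.5%) matched 1 symbol and the others kept their accession. Log2 intensity minus the array's 75th percentile was compared with limma 3.58.1 in R 4.3.3 (lmFit, eBayes, two-sided, Benjamini-Hochberg over 28995 features, threshold 0.05), which gave every p and SE. Probes were tested when well above background on all 3 arrays of a group, and the probe with the highest mean signal stood for its gene; 112 of the 113 member probes were tested, the other, of Mrpl30, being above background on no array. The p-values rest on the spread between 3 animals per group, which the labels describe as separate animals, and on a variance that eBayes shares over all features. For genes with tight replicates the shared part weighs heavily: Mrpl51 had a within-group SD of 0.019 and an SE of 0.075. Precision is limited by the number of arrays. The model was tested on simulated data.

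Members and lists were chosen with earlier results of these data known. Genes named with full values were the 6 highest and 6 lowest, a set with known roles (Mrps36 in it was not among the matched probes) and genes with probes on both sides of 0; other members are named to account for the family, and some, such as Mrpl51 and Mrpl52, were chosen after their values were seen. For other lists the 2 genes with the smallest p, or those past the threshold, are named. Dap3 and the divergent neighbours Fau, Tcp1 and Ppp1r10 were chosen after their values were seen. The files hold no mean signal, so the normexp alternative (offset 50) used the median signal and median background in place of the mean signal planned. Promoter windows and coordinates are those of RefSeq GRCr8.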

Additional observations from a re-analysis of the deposited data

How the results depend on the processing

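Members were called in 4 of 20 alternatives: 4 passed with normexp, 2 with trend and robust options, 1 with median centring and 47 with spike-in scaling. In the slide 1, fixed slide block, replicate block, unfiltered and leave-one-out fits few features of any kind were called, so no member call says little there. The median of the members was 0.047 with quantile normalization (small subunit 0.060), 0.14 with median centring (large 0.12, small 0.15) and 0.59 with spike-in scaling (large 0.57, small 0.60). The count of all features called, 2715 as reported, was 12760 with spike-in scaling, 609 with no filter on dim probes, 350 with slide as a block and 120 on slide 1 alone, and it ran from 335 to 1232 when 1 animal was left out (335 without BDCM 2, 461 without corn oil 2, 749 without BDCM 3, 1060 without corn oil 3, 1171 without BDCM 1, 1232 without corn oil 1). Median centring moved the share of calls that were higher in BDCM livers to 74.2%, and spike-in scaling to 97.6%, against 63.6% as reported. That share was 49.6% without BDCM 2.

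Of the 28 named genes, 474 values under alternatives kept their direction and side of the threshold, 23 passed it only there and 35 changed sign. A call could not be lost, since none of these genes was called in the reported fit. Sign changed with normexp for Mrpl44 (0.041), Mrps18a (0.059) and Mrpl22 (0.031), with quantile normalization for Mrpl10 (-0.079) and Mrpl40 (-0.0091), with median centring for Mrps18a (0.048) and Mrpl22 (0.032), and with the mean over probes for Mrpl40 (-0.056) and Mrpl50 (-0.18). With spike-in scaling it changed for Mrpl41 (0.40), Mrps25 (0.36), Mrpl27 (0.32), Mrpl2 (0.31), Mrpl14 (0.24), Mrpl44 (0.44), Mrps18a (0.49), Mrpl3 (0.41) and Mrpl22 (0.48). With slide as a block and on slide 1 alone it changed for Mrpl10 (-0.14), Mrps18a (0.025), Mrpl22 (0.012) and Mrpl40 (-0.055). Leaving out 1 animal gave -0.059 to 0.091 for Mrpl10, -0.050 to 0.0065 for Mrpl22, -0.032 to 0.064 for Mrpl40, -0.057 to 0.057 for Mrpl50 and -0.026 to 0.0076 for Mrps18a, and with no change of sign 0.063 to 0.18 for Mrps12, 0.061 to 0.17 for Mrpl58 and 0.040 to 0.12 for Mrps21. The cause was not tested.

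The replicate numbers were not used to pair the animals in the reported fit. Deviations of same-numbered animals from their group means correlated weakly, at 0.092, 0.019 and 0.12. Each animal nevertheless correlated best with its own number, a hint from the data and not from the design. With the replicate number as a block 353 features and 0 members were called.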
